A study of Rattus norvegicus with 9 samples.

Results

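Muscle fibre genes encode the contractile filaments, the scaffold and the fuel and oxygen proteins of mature skeletal muscle cells. They were examined here in tissue from the middle of rat femoral fractures. The set was chosen by gene name from a list of 35 protein-coding sarcomere and mature fibre genes. Of these names, 30 matched a row of the count table, which held 35360 rows in all. Myh2, Myh4, Ttn, Atp2a1 and Tcap matched no row by name and are left out of the set. Of the 30 genes, 13 are used mainly by fast fibres, 9 mainly by slow fibres and 8 by both. The set reports how much muscle RNA came with each piece of fracture tissue.

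The study sequenced poly-A RNA in 9 libraries, 3 from each of 3 groups of rat fractures. All groups had a gel at the fracture: the gel alone (Gel), the gel with ALN, a bisphosphonate (ALN gel), or the gel carrying a material made of magnesium and ALN (Mg-ALN gel). The study's stated subject is bone fibrosis under ALN and whether magnesium counters it. The labels give neither strain, sex and age of the rats nor the time after fracture. They also do not say whether the 3 libraries of a group came from separate animals, so p-values measure only how these libraries spread, in part perhaps for technical reasons. Libraries are named below by group and number, for example Gel 3.

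A sarcomere is built from thick filaments of myosin and thin filaments of actin, anchored at Z-discs. Calcium released from the sarcoplasmic reticulum binds troponin on the thin filament and lets myosin pull on actin. Fast fibres and slow fibres use different genes for the same part: a fast or a slow myosin heavy chain, and a fast or a slow troponin I, T and C. Slow fibres lean on oxygen and myoglobin, and fast fibres on glycogen. In rats the muscles around the femur shaft are mostly fast, and a few small deep ones are mostly slow. Muscle lies directly against the periosteum there.

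Total counts per library lay between 13388689 and 18763270, and the share of mitochondrially encoded genes between 4.16% (Gel 3) and 39.5% (ALN gel 1). The 11 marker lists for other cell types gave a summed level per library, in CPM (counts scaled to the library size after TMM). None of the 11 was highest in Gel 3. Summed levels of the 7 heart muscle markers were 0.783 to 2.49 CPM. The leading genes of that list by mean FPKM, Tnni3, cardiac troponin I, and Mybpc3, cardiac myosin binding protein C, had at most 8 and 18 counts. Nppa, the atrial natriuretic peptide, had 0 counts in all 9 libraries. The sums ranged from 16100 to 104700 CPM for osteoblast markers, 2077 to 30950 for osteoclast, 983.4 to 9149 for neutrophil and macrophage, and 213.2 to 8694 for erythroid markers. They ranged from 328.7 to 1223 CPM for endothelial, 127.4 to 544.9 for adipocyte and 53.4 to 198.5 for Schwann cell and nerve markers. Smooth muscle, tendon and cartilage markers are given beside the genes they touch. Counts differ between replicates far beyond counting error, with a chi-square per degree of freedom of at least 72.3 in every pair.

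The 30 muscle fibre genes took a share of all counts that differed widely between libraries of the same group. In Gel 1 to 3 the share was 0.0177%, 0.0215% and 1.68%. In ALN gel 1 to 3 it was 0.274%, 0.0166% and 0.292%. In Mg-ALN gel 1 to 3 it was 0.0526%, 0.0403% and 0.00833%. Gel 3 stood far above all the others, ALN gel 1 and ALN gel 3 came next, and Mg-ALN gel 3 was lowest. The groups overlapped, since Gel and ALN gel each held libraries with little and with much muscle RNA. The summed counts were 225407 for Gel 3, 46086 for ALN gel 1, 42284 for ALN gel 3 and, at the low end, 1563 for Mg-ALN gel 3. The mitochondrial share of counts was 4.16% in Gel 3, 39.5% in ALN gel 1, 7.61% in ALN gel 3 but 31.6% in Mg-ALN gel 3, and its part in these values was not tested. In such bulk tissue, fewer muscle fibres and less RNA per fibre cannot be told apart.

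Library by library, 23 of the 30 genes had their highest CPM in Gel 3 and the other 7 in ALN gel 3. All 13 fast genes and all 8 genes of both fibre types were highest in Gel 3. Of the 9 slow genes only Mb and Mybpc1 were. The 7 slow genes highest in ALN gel 3 were Myh7, Myl2, Myl3, Tnnt1, Tnni1, Tnnc1 and Myoz2. All 13 fast genes shared the same highest 3 libraries, Gel 3, ALN gel 1 and ALN gel 3. Mg-ALN gel 3 was lowest, ties included, for 25 of the 30 genes, and 14 genes had 0 counts there. These ranks rest on single libraries and carry no test.

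**Figure D1:**
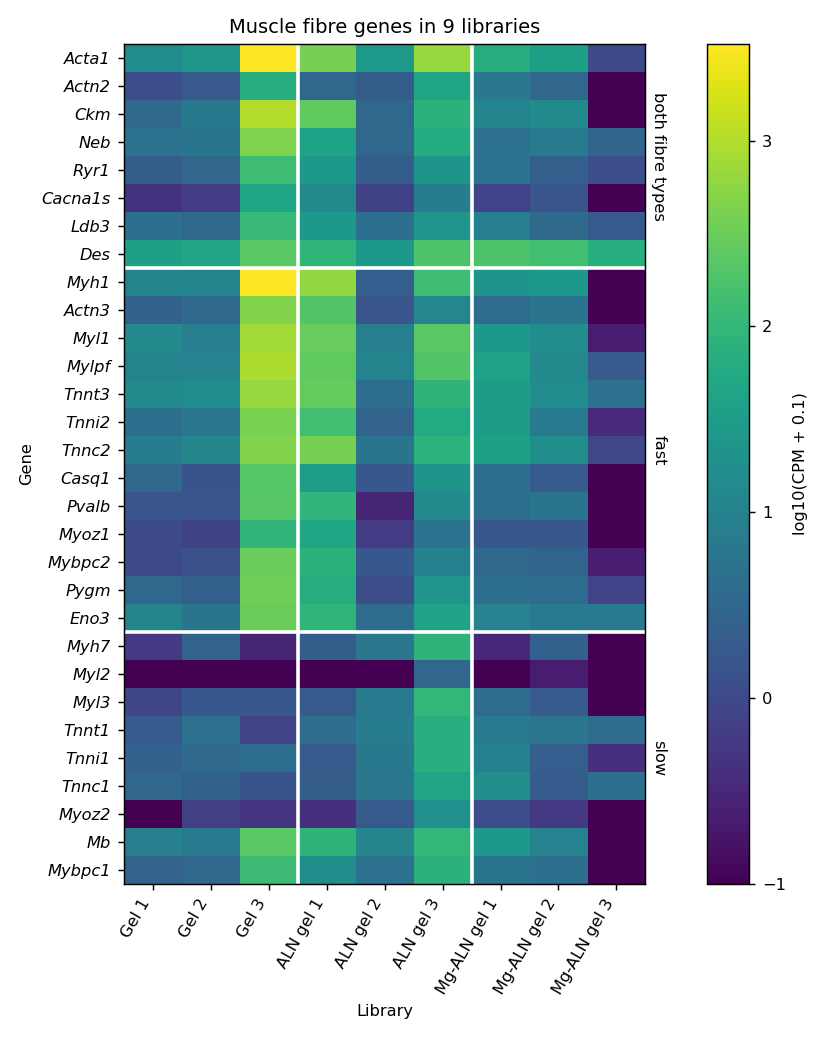
Level of each of the 30 muscle fibre genes (rows, grouped as used by both fibre types, fast or slow) in each of the 9 libraries (columns), as the base-10 logarithm of CPM plus 0.1. Fast genes are brightest in Gel 3, 7 of the 9 slow genes are brightest in ALN gel 3, and 14 genes are at 0 in Mg-ALN gel 3.

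Among the thick filament genes, Myh1, the fast myosin heavy chain 2X, had 153, 195 and 51201 counts in Gel 1 to 3. It had 7972, 34 and 2126 in ALN gel 1 to 3 and 280, 426 and 0 in Mg-ALN gel 1 to 3. Gel 3 alone carried most Myh1 counts of the series, and the 3 groups overlapped. Its mean level was 1077 ± 1847 CPM (SD, n = 3) in Gel, 249.9 ± 325.4 with ALN gel and 15.8 ± 13.8 with Mg-ALN gel. The SD exceeded the mean in Gel and in ALN gel. The Myh1 row lies on the plus strand of chromosome 10 from 53713938 to 53848347 in the deposited coordinates, whose build is not given in the sources used here. It spans 134410 bases with 18143 exonic bases, against 5923 exonic bases for Myh7. In the RefSeq gene table of assembly GRCr8, Myh2, Myh1 and Myh4, all adult fast myosins, are neighbours in this order. Adult fast myosin isoforms therefore cannot be told apart in that row. The Myh1 row also overlaps that of Myh8, a myosin of developing muscle, on the same strand. The Myh8 row held 23 counts in all.

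Myh7, the heavy chain of slow fibres, gave another order. It had 7, 46 and 3 counts with Gel, 26, 96 and 1417 with ALN gel, and 3, 39 and 0 with Mg-ALN gel. Only ALN gel 3 held over 100 counts, and Gel 3, with the most fast myosin, held 3. The mean was 1.09 ± 1.31 CPM (SD, n = 3) in Gel, 31.4 ± 47.4 with ALN gel and 0.853 ± 1.28 with Mg-ALN gel.

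The fast light chains followed Myh1. Myl1, the fast essential light chain, had 201, 148 and 12679 counts with Gel, 3778, 133 and 3761 with ALN gel, and 329, 274 and 2 with Mg-ALN gel. Mylpf, the fast regulatory light chain, had 153, 179 and 14932 counts with Gel, 3425, 174 and 3284 with ALN gel, and 492, 226 and 30 with Mg-ALN gel. In both genes ALN gel 1 and ALN gel 3 were nearly level in counts, whereas Myh1 was higher in ALN gel 1. Myl3, the slow essential light chain, had 11, 30 and 25 counts with Gel, 23, 110 and 1628 with ALN gel, and 49, 32 and 0 with Mg-ALN gel. Myl2, the slow regulatory light chain, had 49 counts in ALN gel 3, 2 in Mg-ALN gel 2 and 0 in the other 7 libraries. It was the 1 gene of the 30 that did not pass the filter on low counts.

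Myosin binding protein C sits along the thick filament and tunes its movement. Mybpc2, the fast form, had 4904 counts in Gel 3, 1044 in ALN gel 1 and 156 in ALN gel 3, and at most 46 in the other 6 libraries. Mybpc1, counted here as slow, had 1982 counts in Gel 3, 225 in ALN gel 1 and 1334 in ALN gel 3, and at most 78 elsewhere. Unlike the slow myosin and light chains, Mybpc1 was high in Gel 3 as well as in ALN gel 3.

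Among the thin filament genes, Acta1, skeletal muscle actin, had the widest range of the genes with over 3 counts in every library. Its level was 15.6, 24.8 and 3314 CPM with Gel, 384.3, 28.1 and 667.5 with ALN gel, and 64.7, 37.1 and 0.889 with Mg-ALN gel. The highest library was 3726 times the lowest. In ALN gel, library 3 exceeded library 1, the reverse of Myh1. Reads of Acta1 may be shared in part with the near-identical actin genes Actc1 and Acta2. Neb, which encodes nebulin, a giant protein that runs along the thin filament, had 73, 100 and 6940 counts with Gel, 538, 52 and 1003 with ALN gel, and 62, 114 and 46 with Mg-ALN gel.

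The troponin complex switches the thin filament on, and its 3 subunits each have a fast and a slow gene. Tnni2, the fast inhibitory subunit, had 64, 105 and 6555 counts with Gel, 1847, 43 and 960 with ALN gel, and 381, 125 and 4 with Mg-ALN gel. Tnni1, its slow partner, had 33, 60 and 68 with Gel, 24, 104 and 1136 with ALN gel, and 121, 36 and 5 with Mg-ALN gel. The fast gene thus peaked in Gel 3, and the slow gene in ALN gel 3 only. Tnnt3, the fast tropomyosin-binding subunit, had 195, 274 and 10740 counts with Gel, 3705, 67 and 1403 with ALN gel, and 405, 264 and 78 with Mg-ALN gel. Tnnt1, its slow partner, had 28, 87 and 12 with Gel, 51, 131 and 1190 with ALN gel, and 92, 98 and 61 with Mg-ALN gel. Gel 3, highest for Tnnt3, was the lowest library for Tnnt1. Tnnc2, the fast calcium-binding subunit, had 114, 213 and 7258 counts with Gel, 5004, 88 and 1354 with ALN gel, and 474, 293 and 13 with Mg-ALN gel. Tnnc1, its slow and cardiac partner, had 42, 44 and 22 with Gel, 27, 100 and 731 with ALN gel, and 211, 33 and 71 with Mg-ALN gel. Tnnc1 and Tnnt1 kept 71 and 61 counts in Mg-ALN gel 3, where Acta1 had 14 and Myh1 0.

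The 250 bases before the RefSeq start of Acta1 and of 3 troponin genes are printed because these genes show the 2 patterns above, Acta1 and Tnni2 by Gel 3 and Tnni1 and Tnnt1 by ALN gel 3. Capitals mark 2 motifs on either strand, the E-box CANNTG that myogenic factors such as MyoD bind, and TATAAA, the TATA box. The sequences run 5′ to 3′ on the gene's strand, from GRCr8: Acta1 chr19:68784195-68784444 (minus strand), Tnni2 chr1:207024240-207024489 (plus), Tnni1 chr13:49781279-49781528 (plus) and Tnnt1 chr1:78348785-78349034 (plus).
Acta1: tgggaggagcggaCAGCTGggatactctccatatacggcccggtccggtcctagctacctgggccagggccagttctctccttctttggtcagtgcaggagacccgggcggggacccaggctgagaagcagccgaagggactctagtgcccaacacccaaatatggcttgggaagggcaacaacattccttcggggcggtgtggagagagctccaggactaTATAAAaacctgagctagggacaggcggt
Tnni2: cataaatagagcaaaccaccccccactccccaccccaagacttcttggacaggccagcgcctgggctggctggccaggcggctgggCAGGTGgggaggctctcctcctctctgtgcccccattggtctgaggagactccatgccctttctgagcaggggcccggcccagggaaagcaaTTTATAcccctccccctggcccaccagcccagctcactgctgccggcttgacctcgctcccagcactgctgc
Tnni1: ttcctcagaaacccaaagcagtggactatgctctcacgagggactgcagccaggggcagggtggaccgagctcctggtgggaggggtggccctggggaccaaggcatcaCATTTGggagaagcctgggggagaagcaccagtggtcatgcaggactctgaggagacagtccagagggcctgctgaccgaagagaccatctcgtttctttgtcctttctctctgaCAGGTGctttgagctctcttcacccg
Tnnt1: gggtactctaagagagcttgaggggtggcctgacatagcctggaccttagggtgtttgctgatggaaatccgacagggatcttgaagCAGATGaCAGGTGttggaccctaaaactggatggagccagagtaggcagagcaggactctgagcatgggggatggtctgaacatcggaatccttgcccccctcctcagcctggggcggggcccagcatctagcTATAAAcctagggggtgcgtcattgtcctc
The table held 27 promoters for 26 of the 30 genes. An E-box was found in 24 of the 27, against 65.5% of all 33469 promoters, and TATAAA in 8 of the 27, against 12.9%. Both sides of the fibre-type split held E-boxes, as the printed fast and slow troponin genes show. The MEF2 motif was found in 4 of the 27 (2.96% of all promoters), the CArG box in 3 (1.497%) and the MCAT motif CATTCC in 6 (12.1%). A match describes letters in this window and is not a binding site.

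At the Z-disc, where thin filaments of neighbouring sarcomeres meet, alpha-actinin cross-links actin. Actn3, the form of fast fibres, had 7308 counts in Gel 3, 2655 in ALN gel 1 and 206 in ALN gel 3. Actn2, the form of all fibres, had 1138, 42 and 744 in the same libraries. Per 100 Actn2 counts this was 642.2 Actn3 counts in Gel 3, 6321 in ALN gel 1 and 27.7 in ALN gel 3. The 3 libraries richest in muscle RNA thus differed widely among themselves in this pair. Myoz1, a fast-fibre calcineurin-binding Z-disc protein, had 1519 counts in Gel 3, 612 in ALN gel 1 and 84 in ALN gel 3, and at most 27 elsewhere. Myoz2, its slow partner, had 310 counts in ALN gel 3 and at most 29 in the other 8 libraries. Ldb3, which holds alpha-actinin in place, had 63, 63 and 1762 counts with Gel, 325, 70 and 368 with ALN gel, and 112, 59 and 29 with Mg-ALN gel.

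Des, which encodes desmin, an intermediate filament of striated and smooth muscle that ties Z-discs together in the former, stood apart from the set in its range. Its level was 37.4, 43.7 and 231.8 CPM with Gel, 90.3, 25.6 and 185.2 with ALN gel, and 179.9, 141.9 and 67.7 with Mg-ALN gel. The highest library was 9.06 times the lowest, the narrowest range among genes with over 3 counts in every library. Mg-ALN gel 1 and 2 approached ALN gel 3, although they held far less Acta1. Des counts per 100 Acta1 counts were 6.997 in Gel 3, 278.0 in Mg-ALN gel 1, 382.3 in Mg-ALN gel 2 and 7614 in Mg-ALN gel 3. The 8 smooth muscle markers summed to 456.6, 1260 and 1199 CPM with Gel, 129.3, 602.4 and 870.6 with ALN gel, and 2913, 1143 and 760.9 with Mg-ALN gel. They were led by Tagln and Acta2, both actin-cytoskeleton genes of smooth muscle cells and myofibroblasts. Their part in the Des level was not tested.

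Calcium handling genes followed the fast pattern. Ryr1, the calcium release channel of skeletal muscle, had 29, 53 and 2054 counts with Gel, 331, 33 and 356 with ALN gel, and 66, 37 and 18 with Mg-ALN gel. Cacna1s, the voltage sensor that opens it, had 5, 10 and 713 with Gel, 181, 11 and 136 with ALN gel, and 9, 24 and 0 with Mg-ALN gel. Casq1, the calcium store protein of the reticulum in fast fibres, had 3380 counts in Gel 3, 425 in ALN gel 1 and 360 in ALN gel 3, and at most 58 elsewhere. All 3 genes had the same order, Gel 3 highest and the pair ALN gel 1 and ALN gel 3 next and close together. Pvalb, the calcium buffer parvalbumin of the fastest fibres, had 21, 27 and 3577 counts with Gel, 1214, 3 and 216 with ALN gel, and 54, 93 and 0 with Mg-ALN gel. Per 100 Acta1 counts, Pvalb reached 6.77 in Gel 3, 24.5 in ALN gel 1 and 1.97 in ALN gel 3. The calcium pump SERCA1 was not found by name, but outside the rule a row that the table describes as that protein, AABR07005775.1, had 5397 counts in Gel 3, then 865 and 317 in ALN gel 1 and 3, and none in Mg-ALN gel 3. A row described as titin, AABR07052585.2, had 3435, 535 and 655 counts in the first 3 of these libraries.

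Of the fuel and oxygen genes, Ckm, muscle creatine kinase, which buffers ATP, had 49, 116 and 16104 counts with Gel, 3339, 49 and 1309 with ALN gel, and 140, 244 and 0 with Mg-ALN gel. Pygm, the muscle glycogen phosphorylase, had 44, 41 and 5220 with Gel, 857, 18 and 371 with ALN gel, and 59, 61 and 11 with Mg-ALN gel. Both were highest in Gel 3, with ALN gel 1 above ALN gel 3. Eno3, the muscle form of the glycolytic enzyme enolase, had 158, 100 and 5120 with Gel, 1163, 63 and 657 with ALN gel, and 128, 118 and 113 with Mg-ALN gel. Eno3 kept 113 counts in Mg-ALN gel 3, where Ckm had 0. Mb, myoglobin, the oxygen store that slow fibres hold most of, had 128, 129 and 3636 with Gel, 1131, 178 and 1604 with ALN gel, and 328, 167 and 0 with Mg-ALN gel. Mb counts per 100 Acta1 counts were 6.88 in Gel 3, 22.8 in ALN gel 1 and 14.6 in ALN gel 3.

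Per exonic base, in the authors' FPKM, the genes with the highest mean over the 9 libraries were Acta1 at 348.0, Mylpf at 223.2, Tnnc2 at 145.6, Myl1 at 143.8 and Tnnt3 at 110.6 FPKM. Acta1 is a gene of both fibre types, and the others are fast genes. In Gel 3 these genes stood, in the same order, at 2310, 1282, 605.9, 753.0 and 601.4 FPKM. Myh1, whose counts are divided by 18143 exonic bases, averaged 24.5 FPKM. Of the slow genes Mb was highest, at a mean of 55.0 FPKM, above the fast genes Tnni2 at 41.2 and Eno3 at 38.1, and it stood at 241.3 FPKM in Gel 3. The slow genes Tnnt1, Myl3 and Tnnc1 averaged 12.1, 14.0 and 10.9 FPKM, with 71.7, 105.9 and 52.0 in ALN gel 3. In Mg-ALN gel 3 the highest of the set was Des at 30.3 FPKM, and Acta1 stood at 0.603.

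**Figure D2:**
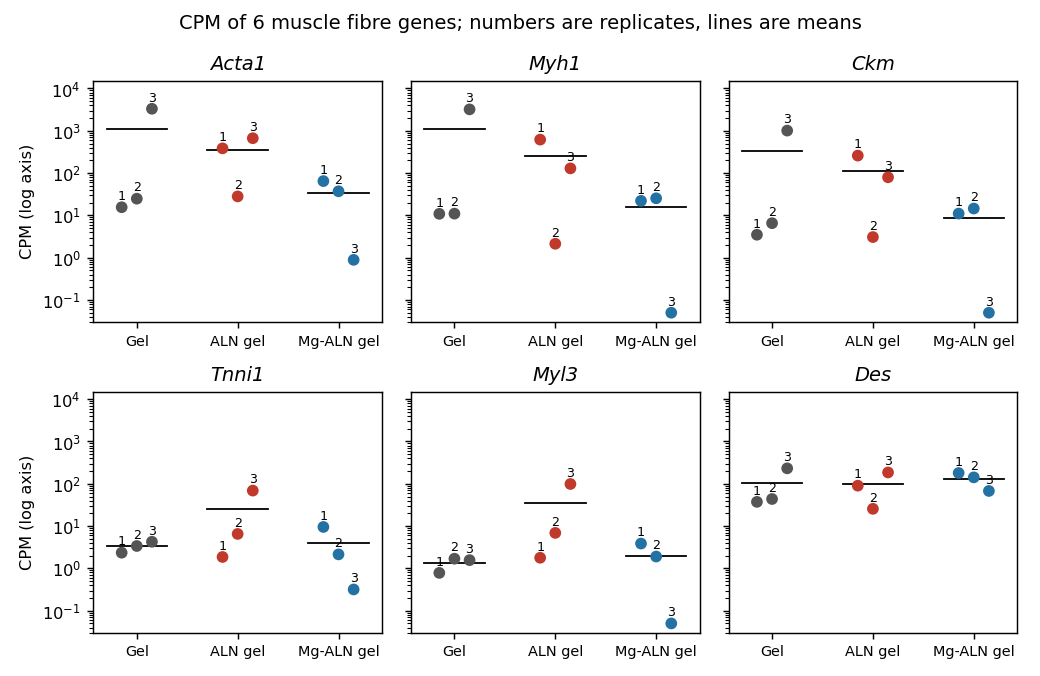
Level of Acta1, Myh1, Ckm, Tnni1, Myl3 and Des in CPM on a logarithmic axis, 1 point per library numbered by replicate, with the arithmetic mean of each group as a line; 0 CPM is drawn at 0.05. Libraries of a group spread over orders of magnitude for Acta1, Myh1 and Ckm, and Des varies 9.06-fold over all 9 libraries.

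The balance of slow and fast genes is a ratio within each library, so it needs no scaling between libraries. Over the whole set, slow genes made up 19.1%, 24.8% and 4.11% of the slow and fast counts in Gel 1 to 3. They made up 4.29%, 53.9% and 38.6% in ALN gel 1 to 3 and 24.3%, 19.2% and 35.1% in Mg-ALN gel 1 to 3. By this share Gel 3 and ALN gel 1 were nearly alike and almost wholly fast, whereas ALN gel 2 and ALN gel 3 held a far larger slow share. The pooled share mixes genes of unlike pattern. In Gel 3, Mb and Mybpc1 held 3636 and 1982 of the 5754 slow counts. In Mg-ALN gel 3, Tnnc1 and Tnnt1 held 71 and 61 of 137. The groups overlapped in this share, and its highest and second lowest values both came from ALN gel libraries.

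Single pairs of partner genes gave a like picture, though the pair of Mybpc1 did so only in part. Tnni1 made up 34.0% (exact 95% binomial interval 24.7 to 44.3) of the Tnni1 and Tnni2 counts in Gel 1 and 36.4% (29.03 to 44.2) in Gel 2. In Gel 3 it was 1.03% (0.798 to 1.30) and in ALN gel 1 it was 1.28% (0.824 to 1.90). It was 70.8% (62.7 to 78.0) in ALN gel 2 and 54.2% (52.0 to 56.4) in ALN gel 3. The 3 libraries given ALN gel thus lay far outside each other's intervals. In Mg-ALN gel 1 and 2 the Tnni1 share was 24.1% (20.4 to 28.1) and 22.4% (16.2 to 29.6), and Mg-ALN gel 3 had only 9 counts for both genes. These intervals cover counting error only, and reads without molecular identifiers are not independent molecules.

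Slow myosin made up 0.00586% of the Myh7 and Myh1 counts in Gel 3 and 0.325% in ALN gel 1. It made up 73.8% (65.4 to 81.2) in ALN gel 2 and 40.0% (38.4 to 41.6) in ALN gel 3. It was 4.38% and 19.1% in Gel 1 and 2 and 1.06% and 8.39% in Mg-ALN gel 1 and 2. ALN gel 2 thus held little muscle RNA, with more slow than fast myosin counts, and ALN gel 3 held much of both kinds. The Tnnt1 share was 0.112% in Gel 3, 1.36% in ALN gel 1, 66.2% in ALN gel 2 and 45.9% in ALN gel 3. Tnnc1 made up 84.5% of 84 counts in Mg-ALN gel 3, where its fast partner had 13. The Mybpc1 share was 28.8% in Gel 3 and 17.7% in ALN gel 1 against 89.5% in ALN gel 3. In ALN gel 2 it was 74.3%, near the 74.0% of Gel 1 and 71.4% of Gel 2. Mg-ALN gel 1 and 2 stood at 64.9% and 62.9%. With FPKM in place of counts, 15 of the 69 shares of the 8 pairs moved outside their interval. These pairs include Actn2, the form of all fibres, with Actn3. Slow myosin then made up 67.1% of the ALN gel 3 pair. That value rests on gene length, 18143 exonic bases for Myh1 against 5923 for Myh7. Adult fast myosins cannot be told apart in the Myh1 row, so its length may be too great for 1 gene.

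**Figure D3:**
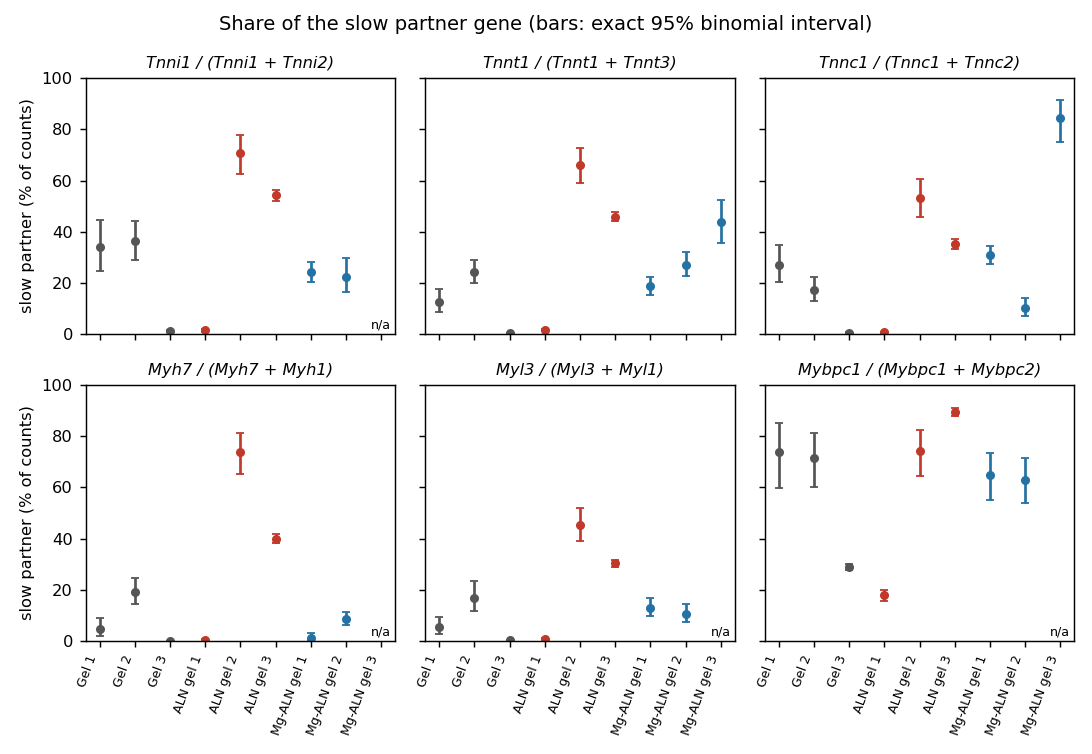
Share of the slow partner gene in the counts of 6 slow and fast gene pairs, in percent, for each library, with exact 95% binomial intervals as bars; n/a marks fewer than 10 counts for both genes. Gel 3 and ALN gel 1 lie lowest in every pair, and ALN gel 2 and ALN gel 3 lie well above them.

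The comparison of ALN gel with Gel asks what ALN adds to the gel. No muscle fibre gene passed the test in it: 0 of 29 had an adjusted p under 0.05 by edgeR's quasi-likelihood test with Benjamini-Hochberg adjustment over 15460 genes, where 0% of all genes were called. At an unadjusted p under 0.05 there were 5 of 29, all slow and all higher in ALN gel, against 8.20% of all genes. Myh7 had a log2 fold change of 4.81 with an SE of 1.76 (edgeR adjusted p = 0.561), Myl3 one of 4.72 with an SE of 1.63 (edgeR adjusted p = 0.544) and Tnnt1 one of 3.46 with an SE of 1.10 (edgeR adjusted p = 0.536). Without ALN gel 3 these fold changes were 1.80, 1.62 and 1.19. Myl3 was the 1 gene of the set whose groups did not overlap, at 0.783, 1.69 and 1.57 CPM in Gel and 1.78, 6.90 and 98.9 CPM in ALN gel. ALN gel 1 lay just above the highest Gel library, and 16.1% of all genes did not overlap in either direction. DESeq2 called 95 of the 14459 genes that it gave an adjusted p. Among them was Tnnt1 (DESeq2 adjusted p = 0.0487, the lowest of a range up to 0.9999 over all alternatives). Limma-voom with quality weights called 263 of 15460 genes and none of the set.

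The medians of slow and fast genes lay on opposite sides of 0 in ALN gel against Gel. The median log2 fold change was 3.20 over the 8 slow genes tested and −1.08 over the 13 fast genes, against −0.0014 over all genes tested. Over all 29 it was −0.99, and 7 of the 29 were positive. Of the 8 slow genes 6 were positive, while Mb and Mybpc1 stood at −0.32 and −0.33. Of the 13 fast genes 1 was positive. The slow median fell to 1.01 when ALN gel 3 was left out. Acta1 had a log2 fold change of −1.63 with an SE of 1.95, and Myh1 one of −2.11 with an SE of 2.35, so both lay within 1 SE of 0. Without Gel 3 all 29 were positive, the median was 3.63 and that of the fast genes 3.91. Without both Gel 3 and ALN gel 3 the median was 2.87, and a block for the replicate number gave −0.13. A single Gel library thus set the sign for 22 of the 29 genes.

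The comparison of Mg-ALN gel with ALN gel asks what the magnesium material changes. Again 0 of 29 genes were called by edgeR (0% of all genes), 2 had an unadjusted p under 0.05, both slow and lower in Mg-ALN gel, against 9.19% of all genes. DESeq2 called 171 of 16227 genes with an adjusted p and limma-voom 2 of 15460, none of the set. The medians were −3.15 over the 29 genes, −3.33 over the fast and −3.01 over the slow genes, against −0.04 over all genes tested, and Des, at 0.37 with an SE of 0.84, was the only positive one. Myh7 had a log2 fold change of −5.16 with an SE of 1.80 (edgeR adjusted p = 0.497) and Acta1 one of −3.39 with an SE of 2.09 (edgeR adjusted p = 0.638). The groups overlapped for all 29 genes tested, against 16.5% of all genes that did not overlap in either direction. ALN gel 2 lay within or below the Mg-ALN gel range for all 13 fast genes. Without ALN gel 1 the fast median was −1.44, and without ALN gel 3 the slow median was −1.08.

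When Mg-ALN gel was set against Gel, 0 of 29 genes were called by edgeR (0% of all genes), and 7 of 29, all lower in Mg-ALN gel, had an unadjusted p under 0.05, against 9.31% of all genes. DESeq2 called 48 of 18909 genes with an adjusted p and limma-voom none, and neither called a gene of the set. The median was −3.80 over the 29 genes and −4.53 over the fast genes, against 0.37 over the slow genes and −0.03 over all genes tested. Myh1 had a log2 fold change of −6.09 with an SE of 2.82 (edgeR adjusted p = 0.531), Acta1 one of −5.03 with an SE of 2.25 (edgeR adjusted p = 0.530) and Ckm one of −5.32 with an SE of 2.49 (edgeR adjusted p = 0.531). Without Gel 3 the median was 0.53, 25 of the 29 were positive and Acta1 stood at 0.74. None of the 29 genes had groups that did not overlap, against 18.3% of all genes. Gel 1 and 2 lay inside the Mg-ALN gel range for Acta1 and Myh1. The 3 comparisons share their groups, so their values are not independent of each other.

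**Figure D4:**
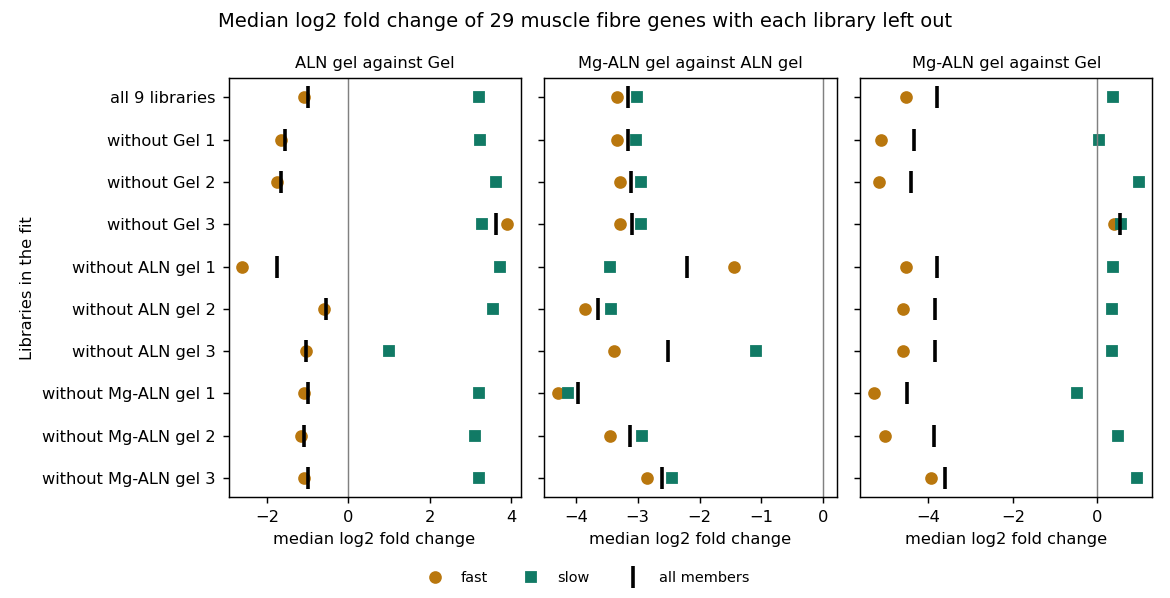
Median log2 fold change of the 29 tested muscle fibre genes (black bars), of the 13 fast genes (circles) and of the 8 slow genes (squares) in each comparison, with all 9 libraries and with each library left out. Without Gel 3 the median of the set moves from −0.99 to 3.63 in ALN gel against Gel and from −3.80 to 0.53 in Mg-ALN gel against Gel.

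Other mature muscle genes followed the set. Of 40 such genes, 35 passed the filter, and 26 of those were highest in Gel 3. EdgeR called none in any comparison. In the order of the 3 comparisons above, 0, 2 and 6 of the 35 had an unadjusted edgeR p under 0.05. The shares over all genes were 8.20%, 9.19% and 9.31%. Their median log2 fold changes in that order were −0.61, −2.16 and −2.38. The 4 with the highest mean FPKM were Tpm1, Tpm2, Tpm3 and Fhl1. The tropomyosins, which lie along actin in muscle and in other cells, varied less than the set: Tpm1 had 21186 counts in Gel 3 and 5768 to 11261 elsewhere, and Tpm3 had 3619 to 7501 in all. Fhl1, a scaffold gene of slow fibres among others, had 2809 counts in Gel 3, 3320 in ALN gel 3 and at most 1121 elsewhere.

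Genes of developing and regenerating muscle were matched for 19 of 20 names, and 12 passed the filter. EdgeR called none. In the same order 0, 2 and 2 had an unadjusted edgeR p under 0.05, against 8.20%, 9.19% and 9.31% of all genes. In ALN gel against Gel 7 of 12 were positive. The median log2 fold changes in the same order were 0.21, −1.61 and −0.97. The 4 with the highest mean FPKM were Ncam1, Tnnt2, Cdh15 and Myl4, and none of them had its highest CPM in ALN gel 3. Tnnt2 was highest in Mg-ALN gel 2, at 27.2 CPM against 10.6 in ALN gel 3. Cdh15 was highest in Gel 1, at 84.0 against 15.9, and Myl4 in Mg-ALN gel 1, at 14.0 against 11.6. Ncam1, a cell adhesion gene, had 766, 2096 and 1640 counts with Gel, 370, 843 and 1184 with ALN gel, and 340, 532 and 572 with Mg-ALN gel, so it did not follow Acta1. Myh3, the embryonic myosin heavy chain, was chosen after its values were seen, as were Actc1, Myog, Myod1, Pax7, Csrp3, Ankrd2, Tnmd, Scx, Chad, Acan, Col2a1, Col9a1, Col10a1, Matn3 and Nppa. Myh3 had 29, 17 and 71 counts with Gel, 18, 32 and 734 with ALN gel, and 56, 2 and 0 with Mg-ALN gel. Its counts peaked in ALN gel 3. Per 100 Myh1 counts, Myh3 stood there at 34.5, against 0.139 in Gel 3 and 0.226 in ALN gel 1. This ratio was highest in ALN gel 2, at 94.1, from 32 Myh3 and 34 Myh1 counts. It was 18.95 in Gel 1, 8.72 in Gel 2 and 0.4695 in Mg-ALN gel 2, and Mg-ALN gel 1 had 56 Myh3 and 280 Myh1 counts. A high ratio was thus not particular to ALN gel 3. Actc1, the cardiac actin that embryonic skeletal muscle also uses, had 324 counts in ALN gel 3 and at most 44 elsewhere. Myog, a differentiation factor of myoblasts, had 77 counts in ALN gel 3, 40 in Gel 3, 38 in Mg-ALN gel 1 and at most 22 elsewhere. Myod1, a factor that commits cells to muscle, was highest in Gel 3, at 128 counts, with 17 in ALN gel 3. Pax7, the marker of muscle stem cells, had 1 count in all.

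Muscle stress and wasting genes were matched for 11 of 12 names, and 9 passed the filter. EdgeR called none. An unadjusted edgeR p under 0.05 was found for 1, 2 and 2, against 8.20%, 9.19% and 9.31% of all genes. The median log2 fold changes were −0.42, −0.48 and −0.98. Gadd45a, Cdkn1a, Foxo3 and Ankrd1 had the highest mean FPKM, and the first 3 are used by most cells. Ankrd1, a stretch-responsive muscle protein, had 39, 13 and 1174 counts with Gel, 79, 28 and 249 with ALN gel, and 78, 29 and 0 with Mg-ALN gel. It was highest in Gel 3, like the fast genes, but ALN gel 3 stood above ALN gel 1. Csrp3, a Z-disc protein of slow and loaded muscle, had 468 counts in ALN gel 3, 235 in Gel 3 and at most 19 elsewhere, and Ankrd2 had 131 in ALN gel 3 and at most 11 elsewhere.

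ALN gel 3 was also the highest library for some tendon and cartilage genes and not for others. Fmod, a collagen-binding matrix gene with the highest mean FPKM of the tendon list, had 1111, 6583 and 6555 counts with Gel, 297, 5153 and 8282 with ALN gel, and 10065, 2154 and 3960 with Mg-ALN gel. Like Scx and Chad of that list it peaked in Mg-ALN gel 1. Thbs4, a tendon matrix gene, had 1814, 424 and 959 counts with Gel, 172, 196 and 7004 with ALN gel, and 2932, 431 and 1200 with Mg-ALN gel. Comp, a matrix gene of cartilage and tendon, had 9436 counts in ALN gel 3 and at most 479 elsewhere. Tnmd, which marks tendon cells, had 351 counts in ALN gel 3 and at most 145 elsewhere. The 7 tendon markers together summed to 230.9, 408.4 and 524.6 CPM with Gel, 52.6, 346.5 and 1014 with ALN gel, and 1125, 190.7 and 356.1 with Mg-ALN gel, so Mg-ALN gel 1 was higher still for the list. The 8 cartilage markers summed to 112.9 to 1043 CPM, highest in ALN gel 3, mostly from Comp and Acan. Col11a2, a cartilage collagen, had 9685 counts in Gel 1, 865 in ALN gel 3 and at most 1740 elsewhere. Col2a1, the main cartilage collagen, had 4864 counts in Gel 3 and 783 in ALN gel 3, and Col9a1, Col10a1 and Matn3 were also highest in Gel 3. Their part in the slow-fibre and developmental levels was not tested.

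**Figure D5:**
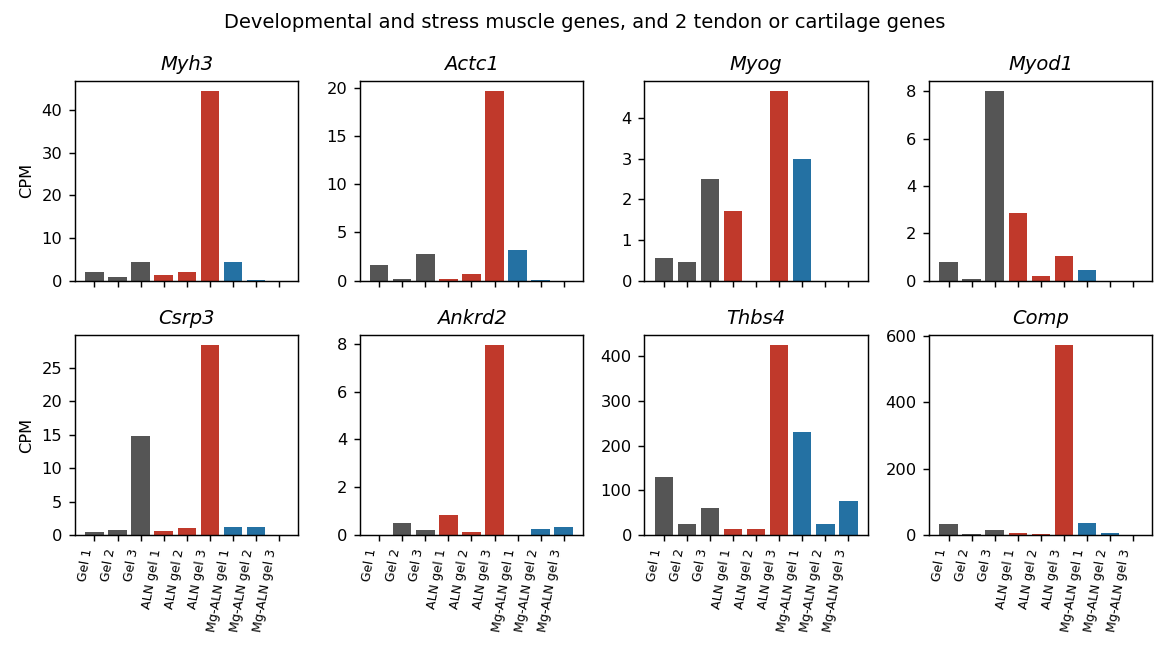
CPM of Myh3, Actc1, Myog, Myod1, Csrp3, Ankrd2, Thbs4 and Comp in each library as bars from 0, with a scale of its own for each gene. All but Myod1 are highest in ALN gel 3, and Myod1 is highest in Gel 3; the muscle genes drawn were chosen after their values were seen.

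Outside the muscle lists, the protein-coding genes with the profile most like the mean of the set over the 9 libraries were Cacng1, LOC298139, Apobec2, Lsmem1, Nrap, Smtnl1, Ankrd23, Trim54, Cavin4 and Adam11. Likeness was the mean absolute difference of log2 CPM, each centred on its own mean. It was 0.42 for Cacng1 and 0.66 for Adam11, against a median of 2.03 over 13751 candidates and of 0.97 over the genes of the set themselves. Nrap had 1635 counts in Gel 3, 168 in ALN gel 1 and 307 in ALN gel 3, and at most 37 elsewhere. Within the set Mylpf was closest to the mean profile, at 0.57, and Myh7 farthest, at 2.33.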

How the data were processed

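The authors deposited read counts per gene as whole numbers, with no normalization, and FPKM values. The submitters' processing notes name edgeR 3.22.5, featureCounts 1.5.0-p3, HISAT2 2.0.5, DESeq2 1.20.0, StringTie 1.3.3b and fastp, with no role stated for any. The genome build is not given in the sources used here. FPKM was checked against the counts only in rows that were not low in counts. There each deposited FPKM value was the count divided by gene length and by 1 constant per library. FPKM thus already holds a scaling. The labels' protocols do not mention strand, so overlapping genes are uncertain: 3 genes of the set overlap another row (Myh1, Myh7 and Ckm), and no such row had over 100 counts in total.

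Counts were fitted in R 4.3.3 with edgeR 4.0.16: filterByExpr left 15460 genes, with TMM scaling, 1 quasi-likelihood fit over all 9 libraries and two-sided p-values with Benjamini-Hochberg adjustment at 0.05 (steps tested on simulated data). Standard errors are the fold change over the square root of F, and log2 CPM had a prior count of 0.5. Alternatives were RLE scaling, library sizes without the set and mitochondrial genes, no low-count filter, DESeq2 1.42.0, limma 3.58.1 voom with quality weights, a replicate block and each library left out. Leaving out Gel 3 and ALN gel 3 together was added after seeing the data. Slow shares carry exact Clopper-Pearson intervals. Promoters are RefSeq's, GRCr8.

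Groups and replicate numbers came from the titles. Deviations from group means correlated across genes for same-numbered libraries of Gel and ALN gel (r = 0.341, 0.419 and 0.226). Different-numbered libraries of these groups gave −0.283 to −0.0125. Same-numbered libraries of the other group pairs gave −0.199 to 0.130, but ALN gel 3 with Mg-ALN gel 2 gave 0.320. Deviations within a group sum to 0, so these values are not independent. A pairing of Gel and ALN gel by number is thus possible but not settled, and the labels give none. The main fit used no replicate block. The genes, lists and alternatives were chosen with earlier results of these data known. The text names all genes of the set, up to 4 genes of each muscle list and up to 2 of each marker list by mean FPKM, and the 10 nearest profiles; others are said to have been chosen after their values were seen.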

Additional observations from a re-analysis of the deposited data

How the results depend on the processing

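Leaving out 1 library, or Gel 3 together with ALN gel 3, moved the medians of the 29 genes between −1.76 and 3.63 in ALN gel against Gel and between −4.50 and 0.53 in Mg-ALN gel against Gel; the positive ends came without Gel 3. In ALN gel against Gel, log2 fold changes then ranged from −2.52 to 4.08 for Acta1, −3.04 to 4.64 for Ckm, −4.03 to 4.77 for Myh1 and −0.92 to 1.24 for Des. In Mg-ALN gel against Gel they ranged from −5.88 to 0.74 for Acta1, −5.99 to 0.73 for Ckm, −6.72 to 0.51 for Myh1, −3.28 to 1.32 for Myh7, −0.49 to 1.08 for Myl3, −1.43 to 0.80 for Tnni1 and −0.10 to 1.66 for Des. In Mg-ALN gel against ALN gel Des ranged from −0.032 to 1.19. Without ALN gel 3, edgeR called 1 gene in ALN gel against Gel, and 0 without any other library.

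DESeq2 called 95 genes in ALN gel against Gel (1 of the set), 171 when Mg-ALN gel was set against ALN gel and 48 when it was set against Gel; limma-voom with quality weights called 263, 2 and 0, and there Myl3 (−2.29) and Tnni1 (−1.78) turned negative in Mg-ALN gel against Gel. With the replicate block edgeR called 0 genes in each comparison, the median in Mg-ALN gel against Gel was −1.79, that against ALN gel −1.67, and Des in ALN gel against Gel was 0.016. The cause was not tested. RLE scaling, other library sizes and no low-count filter turned the sign of at most 1 of the 29 genes in a comparison. Depth limits the partner shares of Mg-ALN gel 3, where 6 of 8 pairs, Actn2 with Actn3 among them, held under 10 counts or none.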
